A study of Mus musculus with 74 samples.

Results

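Pax6, Nr2e1 and the 4 Nuclear factor I genes Nfia, Nfib, Nfix and Nfic encode transcription factors and are grouped here as neural progenitor factors. By level the name does not hold for all 6, since Nfic was lower in neural stem cells than in fibroblasts. The RNA levels of these genes were followed while mouse fibroblasts were driven toward induced neural stem cells. The members were taken by gene name: 6 of 21241 genes in the table of the NSC-medium experiment and the same 6 of 20558 genes in the table of a parallel experiment. All 6 passed the filter on low values in both tables, Nr2e1 only through primary neural stem cells and the induced lines. After the inducing drug was withdrawn, Pax6 was higher in cells given the engineered factor eSox17FNV with Brn4, Klf4 and c-Myc than in cells given Sox17 in its place or lacking Brn4 and c-Myc. Nr2e1 stayed at a value of 4 or less in every reprogramming library and was high only in the induced neural stem cell lines and primary neural stem cells. Nfia and Nfib were high and Nfic low in primary neural stem cells relative to fibroblasts, and Nfix was high in both.

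All cells of the NSC-medium experiment were mouse embryonic fibroblasts (MEFs) with a Sox2-GFP reporter, or neural lines with it. MEFs were sampled at passage 1. The reprogramming MEFs received lentiviral M2rtTA and doxycycline (Dox)-inducible factors: Brn4, Klf4 and c-Myc with eSox17FNV (BKM_FNV), with Sox17 (BKM_Sox17) or with Sox2 (BKM_Sox2), or Klf4 and eSox17FNV only (K_FNV). They were kept in NSC medium (N2, B27, bFGF and EGF) with Dox to day 18 and sampled at days 4, 8, 12 and 18, then without Dox at days 24 and 30. Primary neural stem cells (NSCs) and 2 induced lines, iNSC_BKMF from the 4-factor cocktail and iNSC_KF from the 2-factor cocktail, were sampled at passage 15. The parallel experiment used MEFs that carried Nanog-CreER, Rosa26-tdTomato and Sox2-GFP and received Klf4, c-Myc and eSox17FNV (KM_FNV). These cells stayed in N2B27 medium to day 8 and were then split into NSC medium or LIF/2i, a pluripotency medium with LIF, CHIR99021 and PD0325901, with Dox at days 12 and 16 and without it at days 20 and 24. In both experiments every day without Dox came after the days with it, so Dox withdrawal and time cannot be told apart. Every group had 2 libraries, except BKM_Sox17 and BKM_Sox2 at day 30 with 1 each. Nothing in the labels ties replicates to separate cultures, so p-values measure the spread between these libraries, which may be technical.

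The deposited values are normalized tag counts (values, for short) with no library depth, so no detection limit can be given, and a 0 means only that the gene is listed at 0. Apart from 1 library, columns summed to 17698392 to 17710071 (NSC-medium experiment) and 17848683 to 17866021 (parallel experiment). That library, replicate 1 of BKM_Sox2 at day 24, had a correlation of 0.0578 with its replicate, against 0.949 to 0.961 for other pairs of its table, and it was left out of the fits and levels given here. The MEF, NSC and iNSC_BKMF libraries stand in both tables, so the tables share their references. Summed values of 8 fibroblast markers were 192763 to 195294 in MEFs and 217 to 308 in NSCs, where Postn, Twist1 and Twist2 were listed at 0. Summed values of 9 neural stem cell markers were 114120 to 114920 in NSCs and 1939 to 2034 in MEFs, where Sox2, Olig2 and Hes5 were listed at 0. Most of the NSC sum is 1 gene, Fabp7, which stood at 78139 in both NSC libraries, the highest value that any column of that table holds. The 45 reprogramming libraries of the NSC-medium experiment kept fibroblast sums of 68776 to 241130, under the same ceiling for each gene. RNA was taken from whole cultures, in which fewer cells of a type and less RNA per cell cannot be told apart.

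Pax6 is a paired-box and homeobox transcription factor of radial glia, the eye and the pancreas, where it acts in the choice between progenitor maintenance and neurogenesis. Nr2e1, also called Tlx, is an orphan nuclear receptor that acts mostly as a repressor and keeps neural stem cells of the adult forebrain self-renewing. Nuclear factor I proteins bind DNA as dimers at a palindromic site. Nfia, Nfib and Nfix act at the onset of gliogenesis and in the maturation of progenitors, and Nfic is known for its part in tooth root formation and connective tissue.

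In the GENCODE annotation of GRCm38 (mm10), Pax6 lies at chr2:105668900-105697364 on the plus strand and Nr2e1 at chr10:42561963-42583632 on the minus strand. Nfia lies at chr4:97772734-98118874 on the plus strand, Nfib at chr4:82290173-82705750 on the minus strand, Nfix at chr8:84699876-84800344 on the minus strand and Nfic at chr10:81396186-81455635 on the minus strand. Exons of Nfia, Nfix and Nfic overlap genes on the opposite strand (E130114P18Rik for Nfia; Lyl1 and G430095P16Rik for Nfix; Gm16104 for Nfic). The library protocol states no strand marking, so how reads in these overlaps were assigned to a gene is not known. The promoters of Pax6 and Nr2e1 are shown because Pax6 was present in reprogramming cells in which Nr2e1 was at or near 0. They are RefSeq windows (GRCm38.p6), 5′ to 3′ on the gene's strand, with the SOX core motif in capitals (ACAAT on either strand). The Pax6 window shown, of 2 in the table, is chr2:105668646-105668895 and the Nr2e1 window, cut to the bases before the annotated gene, is chr10:42583633-42583840.
Pax6: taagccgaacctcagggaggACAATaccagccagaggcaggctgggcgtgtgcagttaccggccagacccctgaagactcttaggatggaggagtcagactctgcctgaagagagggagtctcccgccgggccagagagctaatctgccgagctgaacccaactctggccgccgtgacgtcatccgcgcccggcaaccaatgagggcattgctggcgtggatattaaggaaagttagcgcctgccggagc
Nr2e1: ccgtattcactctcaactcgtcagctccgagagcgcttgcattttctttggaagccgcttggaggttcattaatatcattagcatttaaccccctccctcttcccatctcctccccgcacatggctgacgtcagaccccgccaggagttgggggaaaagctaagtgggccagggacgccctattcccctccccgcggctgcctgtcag
This Pax6 window held 1 match, near its 5′ end, and the Nr2e1 window none. A second Pax6 start in the table, with its window at chr2:105682213-105682462, also had none, so the windows do not set these genes apart by this motif. A match occurred in 27.7% of 32851 promoter windows of 250 bases, so 1 match is common. The octamer bound by POU factors such as Brn4 (ATGCAAAT) was in none of these windows and in 1.60% of all windows.

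**Figure D1:**
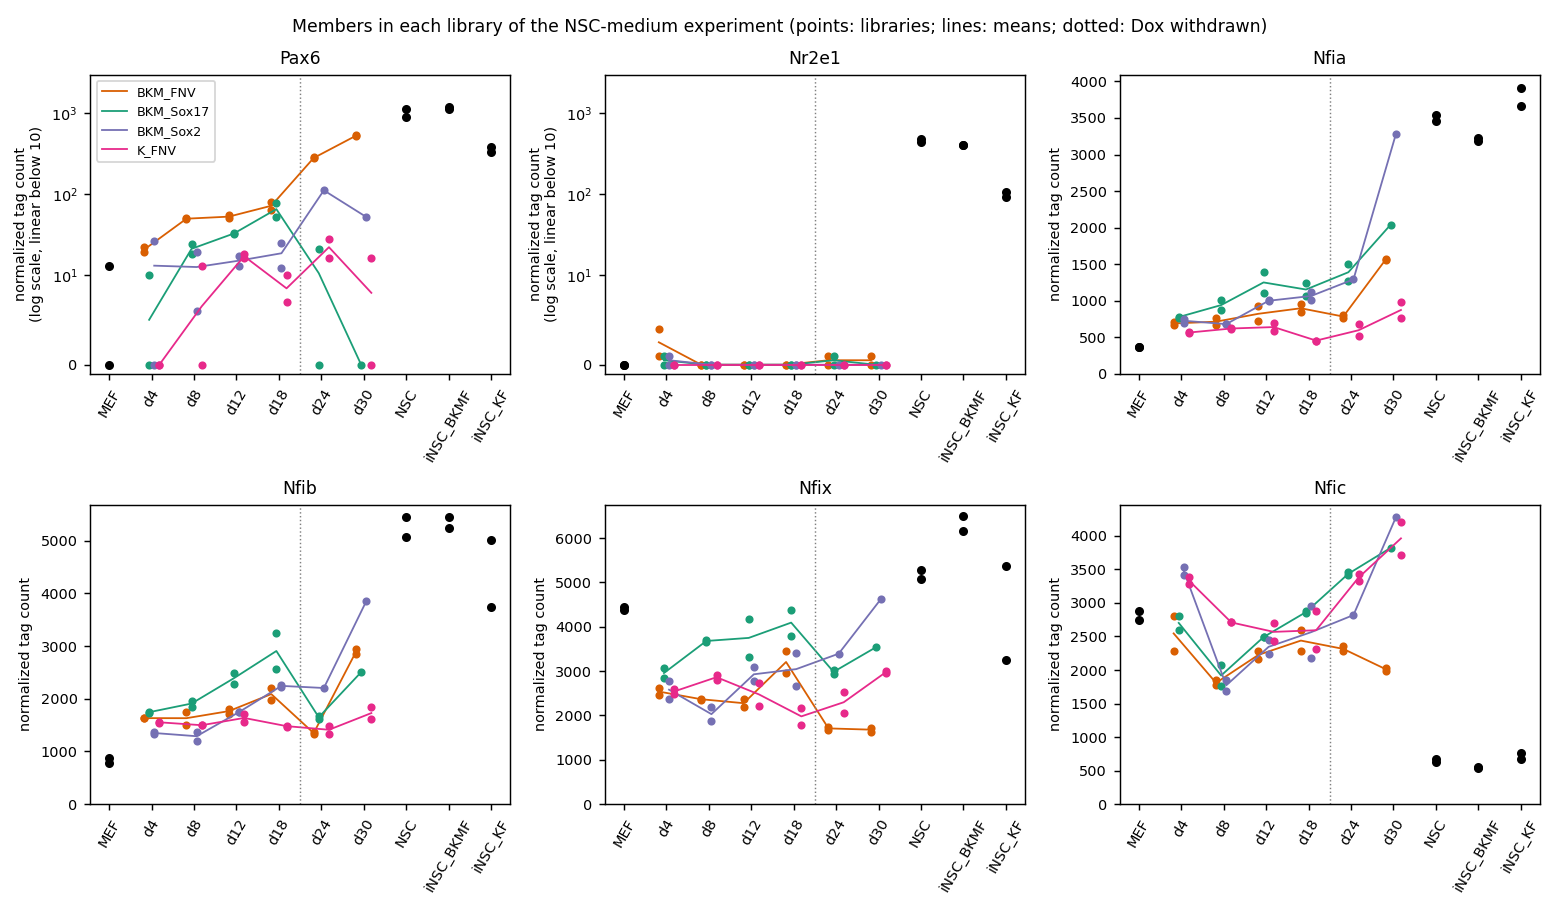
Normalized tag counts of the 6 genes in each library of the NSC-medium experiment, by day and cocktail (colours), with MEFs, NSCs and the induced lines in black; Pax6 and Nr2e1 are on a log scale that is linear below 10. Pax6 is at 519 to 534 in BKM_FNV cells at day 30, Nr2e1 stays at 4 or less outside the neural lines, and Nfic lies at 1691 or above outside them.

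Pax6 was listed at 0 and 13 in the MEF libraries and at 886 and 1119 in NSCs. It was higher in NSCs by 7.51 ± 1.10 on the log2(value + 2) scale (SE; limma, Benjamini-Hochberg adjusted p = 1.03e-06), the scale of all differences given here. A difference was called at an adjusted p under 0.05 and at least 2-fold (1 on the log2 scale), and 5 of the 6 genes were called in this comparison, against 34.4% of all genes. Its values in iNSC_BKMF were 1122 and 1199, above both NSC libraries, and in iNSC_KF 376 and 332, below all libraries of the other neural cells. The difference of iNSC_KF from NSCs was -1.49 ± 1.10 with a 95% interval from -3.76 to 0.78 (limma adjusted p = 0.424), and was not called. All groups share 1 estimate of the spread of a gene, and Pax6 libraries near 0 differ widely on the log scale. With a pseudocount of 10, or with the compared groups alone in the fit, 2 members were called here in place of 1.

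Across the BKM_FNV time course, Pax6 was at 22 and 19 at day 4, 49 and 50 at day 8, 50 and 55 at day 12 and 63 and 80 at day 18. After Dox withdrawal it was at 275 and 283 at day 24 and at 534 and 519 at day 30. The replicates lay close together, and the day 30 libraries stood between those of iNSC_KF and NSCs. The change from day 18 to day 24 was not tested, because the library names in the sample descriptions change in style between these days, and what that marks cannot be told apart from the day. The difference between days 30 and 24 was 0.91 ± 1.10 (limma adjusted p = 0.570). Days 18 and 4 differed by 1.70 ± 1.10 (limma adjusted p = 0.231), and 1 of 6 members, Nr2e1 at near-zero values, was called there, against 22.9% of all genes.

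Every library of the other cocktails after Dox had a Pax6 value under those of BKM_FNV cells. In BKM_Sox17 cells Pax6 was at 0 and 10 at day 4 and at 78 and 52 at day 18, a rise of 3.75 ± 1.10 (limma adjusted p = 0.00663), the only member called, against 19.1% of all genes. This call was lost without day 18 replicate 1 (adjusted p = 0.0502) and without day 4 replicate 1 (adjusted p = 0.155), and with the compared groups alone in the fit (adjusted p = 0.0540). No member was called between these days in BKM_Sox2 or K_FNV cells, against 17.0% and 10.4% of all genes. In BKM_Sox17 cells after Dox, Pax6 was at 21 and 0 at day 24 and at 0 in the 1 library of day 30. In BKM_Sox2 cells Pax6 ran from 0 to 26 with Dox and was at 111 at day 24 and 52 at day 30, in 1 library each. In K_FNV cells, which lack Brn4 and c-Myc, it ran from 0 to 18 with Dox and from 0 to 28 after it.

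With Dox, Pax6 was lower in K_FNV than in BKM_FNV cells by -2.76 ± 0.55 (limma adjusted p = 9.44e-05; 14.5% of all genes were called between these cocktails, and Pax6 was the only member called). BKM_FNV exceeded BKM_Sox2 cells by 1.79 ± 0.55 (limma adjusted p = 0.0128; 6.18% of all genes called), a call lost without replicate 1 of BKM_Sox2 at day 4 (adjusted p = 0.0600). BKM_FNV and BKM_Sox17 differed by 1.05 ± 0.55 (limma adjusted p = 0.174), with an interval from -0.09 to 2.18. No member was called there or between BKM_Sox17 and BKM_Sox2 cells with Dox, against 3.72% and 3.98% of all genes. After Dox, Pax6 was higher in BKM_FNV than in BKM_Sox17 cells by 6.71 ± 0.87 (limma adjusted p = 2.88e-07) and lower in K_FNV than in BKM_FNV cells by -5.03 ± 0.78 (limma adjusted p = 3.10e-06). It was the only member called in each, where 17.8% and 21.7% of all genes were called. Against BKM_Sox2 cells the difference was 2.30 ± 0.96 (limma adjusted p = 0.0505), just outside the threshold.

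Nr2e1 was listed at 0 in both MEF libraries, at 482 and 436 in NSCs, at 398 and 403 in iNSC_BKMF and at 107 and 91 in iNSC_KF. No library of iNSC_KF came near the other neural cells. The spread of Nr2e1 is estimated over all groups, most of which were at or near 0. The fit called the gene higher in NSCs than in MEFs. It passed the filter on low values only through NSCs and the induced lines, so this call is a description and not a test. Nr2e1 was lower in iNSC_KF than in NSCs by -2.19 ± 0.28 (limma adjusted p = 7.66e-07) and higher in iNSC_BKMF than in iNSC_KF by 2.00 ± 0.28 (limma adjusted p = 2.46e-06). Between iNSC_BKMF and NSCs it differed by -0.19 ± 0.28, with an interval from -0.77 to 0.38.

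Among the 45 reprogramming libraries of the NSC-medium experiment Nr2e1 was listed at 0 in 38 and reached 4 at most, in a BKM_FNV library of day 4. The BKM_FNV libraries of day 30, in which Pax6 was at 534 and 519, listed Nr2e1 at 0 and 1. The fit called Nr2e1 lower at day 18 than at day 4 of BKM_FNV, but this rests on 4 and 1 against 0 and 0 and was lost without day 4 replicate 1. In the parallel experiment 18 of 20 reprogramming libraries listed it at 0, and the exceptions were 4 and 2 in NSC medium at day 24.

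Nfia and Nfib had like patterns over the 28 groups, with a Pearson correlation of 0.93 of their group means, a description across groups that share a normalization. Nfia was at 362 and 363 in MEFs and at 3456 and 3537 in NSCs, higher by 3.26 ± 0.13 (limma adjusted p = 1.26e-18). Nfib was at 787 and 869 in MEFs and at 5448 and 5078 in NSCs, higher by 2.67 ± 0.10 (limma adjusted p = 1.06e-18). Against NSCs neither was called in iNSC_BKMF (Nfia at 3185 and 3232, Nfib at 5448 and 5239) or in iNSC_KF (Nfia at 3666 and 3917, Nfib at 5007 and 3739). The second iNSC_KF library had the lower Nfib and also the lower Nfix.

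At day 4 Nfia ran from 561 to 782 over the 8 libraries of the cocktails, against 362 and 363 in MEFs. Nfib ran from 1330 to 1755, against 787 and 869. The mean difference was 0.91 ± 0.10 for Nfia (limma adjusted p = 2.00e-08) and 0.92 ± 0.08 for Nfib (limma adjusted p = 3.55e-10), both under the 2-fold limit of a call. No member was called at day 4, against 18.1% of all genes. In BKM_FNV cells Nfia was at 799 and 766 at day 24 and at 1551 and 1575 at day 30, a difference of 1.00 ± 0.13 that lay just under the limit before rounding and was past it without replicate 1 of either day. Nfib was at 1327 and 1367 at day 24 and at 2849 and 2940 at day 30, and rose by 1.10 ± 0.10 (limma adjusted p = 2.29e-09). It was the only member called between these days, against 14.8% of all genes. Over the same days summed neural stem cell markers went from 10668 and 10727 to 19260 and 19988, of which Fabp7 gave 1664 and 1575 and then 6752 in each library, and their part in the result was not tested.

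High Nfia and Nfib were not limited to BKM_FNV cells. The single BKM_Sox2 library of day 30 had Nfia at 3278 and Nfib at 3851, above both BKM_FNV libraries of that day, and the single BKM_Sox17 library had 2042 and 2505. After Dox the BKM_FNV cells were below BKM_Sox2 cells by -0.89 ± 0.11 in Nfia (limma adjusted p = 2.42e-07) and -0.56 ± 0.09 in Nfib (limma adjusted p = 1.29e-05), again less than 2-fold. In K_FNV cells at day 30 Nfia was at 764 and 981 and Nfib at 1610 and 1844. Both were called higher than in MEFs, by 1.25 ± 0.13 and 1.06 ± 0.10 (limma adjusted p = 5.92e-09 and 2.79e-09). They were 2 of 6 members, where 18.6% of all genes were called and 10.5% were called higher. The Nfib call was lost without K_FNV replicate 2 (0.96) or MEF replicate 1 (0.99). The neighbour on the other strand of Nfia, E130114P18Rik, was listed at 0 in both MEF libraries and at 165 to 168 in BKM_FNV cells at day 30. It was at 489 to 495 in NSCs, 461 to 566 in iNSC_BKMF and 364 to 415 in iNSC_KF, so it was high where Nfia was highest, and its part in the Nfia differences was not tested.

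Nfix did not separate fibroblasts from neural stem cells. It was at 4446 and 4389 in MEFs and at 5078 and 5290 in NSCs, and the difference of 0.23 ± 0.16 was not called (limma adjusted p = 0.228). The 8 day 4 libraries ran from 2377 to 3064, with a mean difference from MEFs of -0.74 ± 0.12 (limma adjusted p = 1.29e-05), less than 2-fold. The iNSC_BKMF libraries, at 6509 and 6162, were the highest of all, and iNSC_KF was at 5366 and 3253.

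In BKM_FNV cells after Dox, Nfix was at 1665 and 1749 at day 24 and at 1632 and 1725 at day 30. These 4 libraries were below every other library used in that table. Nfix was lower there than in BKM_Sox2 cells by -1.23 ± 0.14 (limma adjusted p = 3.32e-08), the only member called in that comparison, where 15.1% of all genes were called. It was below BKM_Sox17 cells by -0.94 ± 0.12 (limma adjusted p = 3.86e-07) and below K_FNV cells by less than 2-fold as well. Against NSCs the day 30 cells were lower by -1.63 ± 0.16 (limma adjusted p = 8.52e-10).

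Nfic ran the other way from Nfia and Nfib. It was at 2741 and 2878 in MEFs and at 673 and 634 in NSCs, lower in NSCs by -2.10 ± 0.11 (limma adjusted p = 1.22e-15). The induced lines were low too, at 551 and 541 in iNSC_BKMF and 674 and 766 in iNSC_KF. No reprogramming library of the NSC-medium experiment came down to this range: the lowest was 1691, in BKM_Sox2 at day 8, and the highest 4278, in BKM_Sox2 at day 30. The left-out library listed Nfic at 0, against 2820 in its replicate. When it was kept, the estimate for NSCs against MEFs was the same but its adjusted p was 0.366.

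After Dox, Nfic was at 2277 and 2353 (day 24) and 1990 and 2035 (day 30) in BKM_FNV cells, below all libraries of the other cocktails on those days. K_FNV cells were at 3321 and 3436 and then at 3716 and 4213, higher than BKM_FNV cells over both days by 0.76 ± 0.08 (limma adjusted p = 3.00e-09), less than 2-fold. Against NSCs the BKM_FNV cells of day 30 were higher by 1.62 ± 0.11 (limma adjusted p = 7.20e-13), a call also lost with the doubted library kept (adjusted p = 0.617). The fibroblast marker sum of these libraries was 186574 and 192763, near that of MEFs, and its part in the Nfic level was not tested. Every column has the same highest value, 78139, so near sums do not show an equal fibroblast content.

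The ratio of Nfib to Nfic within a library sets these opposite patterns side by side. Values were not divided by transcript length, so the ratio has meaning only between libraries. It was 0.287 and 0.302 in MEFs, 8.10 and 8.01 in NSCs, 9.89 and 9.68 in iNSC_BKMF and 7.43 and 4.88 in iNSC_KF. BKM_FNV cells stood at 0.583 and 0.581 at day 24, when the BKM_Sox2 library used stood at 0.781. At day 30 BKM_FNV cells stood at 1.43 and 1.44, the highest among the 4 cocktails of the NSC-medium experiment and still well below the neural lines. K_FNV cells stood at 0.433 and 0.438 at day 30, and the single libraries of BKM_Sox17 and BKM_Sox2 at 0.655 and 0.900. In the parallel experiment, normalized separately, KM_FNV cells in NSC medium with Dox stood at 1.49 and 1.22 at day 16.

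**Figure D2:**
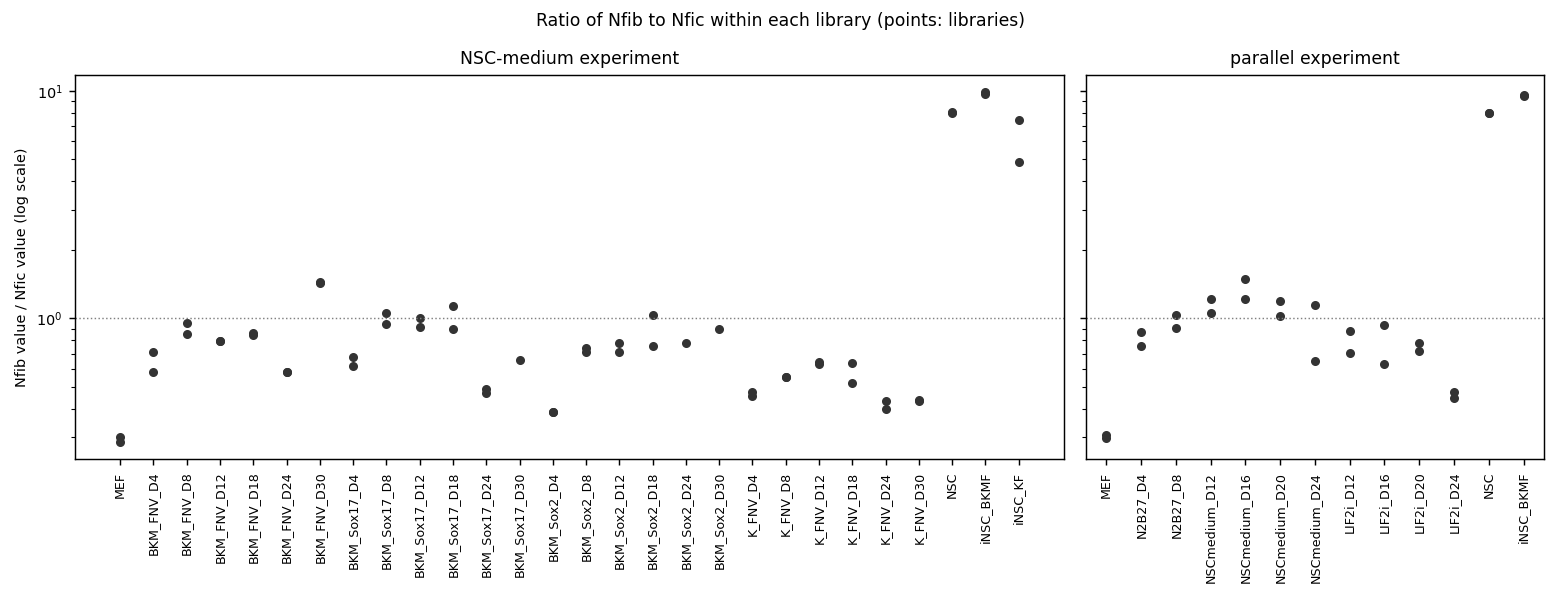
Nfib value divided by Nfic value in each library (points, log scale) of the NSC-medium experiment (left) and the parallel experiment (right). NSCs and the induced lines lie between 4.88 and 9.89, and BKM_FNV day 30 at 1.43 and 1.44 is the highest cocktail group of the left panel.

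Against NSCs, the 6 genes differed by group. None was called in iNSC_BKMF against NSCs, where 2.03% of all genes were. Nr2e1 alone was called in iNSC_KF against NSCs (8.90% of all genes) and between the lines (10.6% of all genes). In BKM_FNV cells of day 30 Nr2e1, Nfia and Nfix were lower and Nfic higher than in NSCs, 4 of 6 against 28.3% of all genes. Nfia differed by -1.16 ± 0.13 (limma adjusted p = 1.21e-08). Nfib differed by -0.86 ± 0.10 (limma adjusted p = 5.97e-08), less than 2-fold, and Pax6 by -0.92 ± 1.10 (adjusted p = 0.517) with an interval from -3.18 to 1.35. The median log2 difference over all genes was -0.17 in this comparison.

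**Figure D3:**
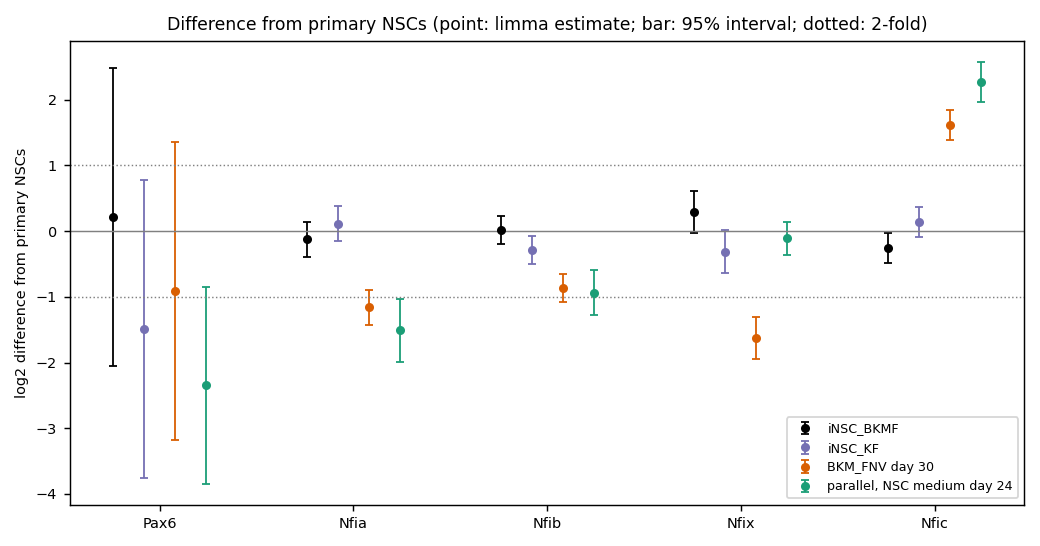
Log2 difference from primary NSCs of 5 members (points: limma estimates; bars: 95% intervals) in iNSC_BKMF, iNSC_KF, BKM_FNV at day 30 and the parallel experiment's NSC-medium cells at day 24. Nr2e1 is not drawn because it is near 0 in both reprogramming groups; Nfic lies above 1 in both and Pax6 has the widest bars.

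Of 10 genes linked to Pax6 in cortical neurogenesis, 8 passed the filter on low values in the NSC-medium table. This list and the gene lists below were chosen with earlier results of these data known. A gene low in most groups could pass the filter through the groups where it was high. The counts of these lists are therefore descriptions and not tests. All 8 were called higher in BKM_FNV than in BKM_Sox17 cells after Dox, where 17.8% of all genes were called, with a median log2 difference of 3.29 against -0.09 over all genes. In K_FNV cells 7 were called lower than in BKM_FNV cells, where 21.7% of all genes were called (median -4.24 against 0.08). Against NSCs, 3 of the 8 were higher and 2 lower in BKM_FNV cells of day 30, where 28.3% of all genes were called. Of 20 other progenitor transcription factors, 14 were higher and 1 lower in BKM_FNV than in BKM_Sox17 cells after Dox, where 17.8% of all genes were called (median 2.73 against -0.09). Sox2, the progenitor and pluripotency factor, averaged 838.5 against 12 there, and was higher by 6.34 ± 0.60 (limma adjusted p = 1.11e-09). Sox3 averaged 1154.5 in BKM_FNV cells and was listed at 0 in all BKM_Sox17 and K_FNV libraries after Dox. Sox1, a neural plate factor, averaged 493 against 285.75 in BKM_Sox17 cells and was not called (limma adjusted p = 0.0613). Against NSCs, 12 of the 20 were lower in BKM_FNV cells of day 30 and 4 higher, against 28.3% of all genes called, with a median of -1.56. Olig2, a factor of oligodendrocyte and motor neuron progenitors, averaged 140 against 15651, and Zic1, a factor of dorsal and midline neural tissue, 1457 against 3.5.

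Of 12 glial genes linked to Nfi factors, 10 were higher and 1 (Tnc) lower in NSCs than in MEFs, where 34.4% of all genes were called. In BKM_FNV cells of day 30, 7 of the 12 were lower than in NSCs and none higher, where 28.3% of all genes were called (median -1.70 against -0.17 over all genes). Slc1a3, a glutamate transporter of radial glia and astrocytes, averaged 2710.5 against 19099, lower by -2.82 ± 0.14 (limma adjusted p = 9.48e-16). Aldoc, an astrocyte aldolase, averaged 530.5 against 12545, lower by -4.56 ± 0.43 (limma adjusted p = 5.31e-10). Fabp7, a fatty acid binding protein of radial glia, stood at 6752 in both libraries. Its NSC value of 78139 is the ceiling of the table, so the difference is not read as a level and its test is not given. Nfia was at 1551 and 1575 in the same libraries. After Dox 9 of the 12 glial genes were higher in BKM_FNV than in BKM_Sox17 cells (17.8% of all genes called). Nfia differed by -0.60 ± 0.10 between these cocktails, and its part in the glial gene levels was not tested.

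Nr2e1 represses with cofactors that include Kdm1a, Rcor2, histone deacetylases and atrophin, and its known targets include Cdkn1a. Of 10 such genes 2 were called between NSCs and MEFs, Rcor2 higher and Hdac7 lower, where 34.4% of all genes were called. With 10 genes these shares cannot be told apart. Rcor2, a corepressor of the Kdm1a complex, averaged 2592.5 in NSCs and 97.5 in MEFs, higher by 4.70 ± 0.27 (limma adjusted p = 5.22e-15). It was at 2903 and 2863 in BKM_FNV cells of day 30, in which Nr2e1 was at 0 and 1, and averaged 153.25 in K_FNV cells after Dox. Cdkn1a, a cell cycle inhibitor, averaged 2443 in BKM_FNV cells of day 30 and 7282 in NSCs, lower by -1.57 ± 0.13 (limma adjusted p = 1.87e-11). In iNSC_KF Cdkn1a was lower than in NSCs by -1.26 ± 0.13 (limma adjusted p = 1.18e-08). Nr2e1 was also lower in that line, and a link of Nr2e1 to the levels of these genes was not tested.

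Pax2, Pax3, Pax5 and Pax7 were present along with Pax6 in BKM_FNV cultures of day 30 and were at 0 or low in NSCs. Of 7 other Pax genes tested, 6 were higher at day 30 of BKM_FNV than in NSCs and none lower (median 4.42 against -0.17 over all genes), where 14.6% of all genes were called higher. Pax3 and Pax7, factors of the dorsal neural tube, neural crest and muscle precursors, were at 451 and 429 and at 225 and 252 in these libraries, against 0 and 0 and 12 and 7 in NSCs. Pax2 and Pax5, factors of the midbrain-hindbrain boundary, were at 216 and 221 and at 92 and 98, and both were listed at 0 in NSCs and in both induced lines. Pax2 had been at 30 and 23 at day 24. Pax9 was the 1 of the 7 not called, averaging 111.5 against 172.5 in NSCs. Among eye field genes Six6, a retinal and hypothalamic factor, was at 130 and 153 in BKM_FNV cells of day 30 and listed at 0 in NSCs, whereas Six3 was at 15 and 15 there and averaged 967 in NSCs.

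**Figure D4:**
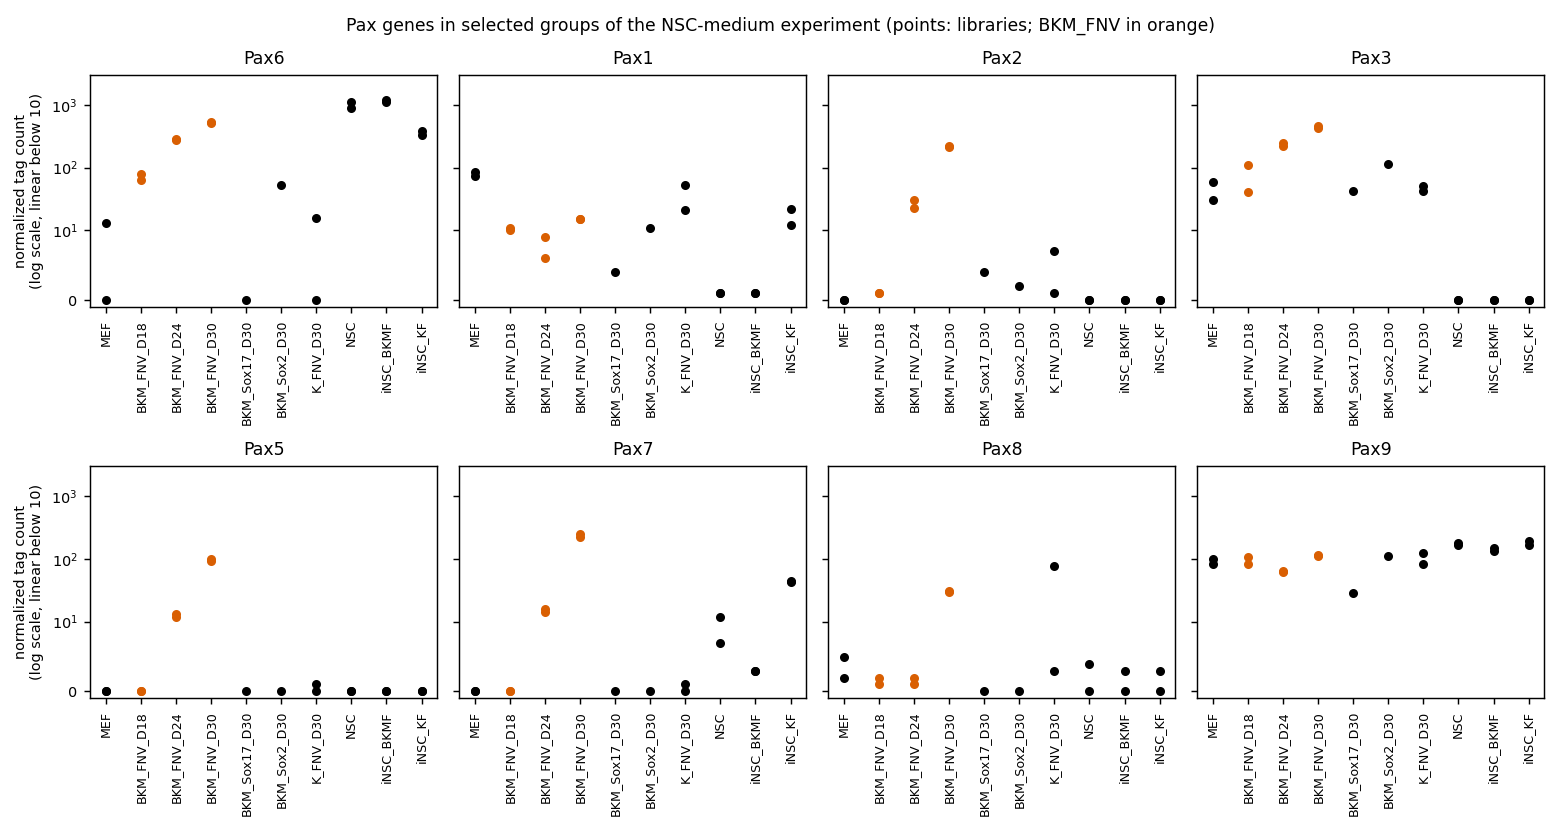
Normalized tag counts of Pax6 and 7 other Pax genes in selected groups of the NSC-medium experiment (points: libraries; BKM_FNV in orange; log scale, linear below 10). Pax2, Pax3, Pax5 and Pax7 are above 90 in BKM_FNV cells at day 30 and at 0 or low in NSCs and iNSC_BKMF, where Pax6 is highest.

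In the parallel experiment Pax6 was at 16 and 11 at day 4 in N2B27 and at 40 and 36 at day 8. In NSC medium it was at 62 and 35, then 63 and 62 with Dox, 45 and 64 at day 20 and 289 and 117 at day 24. In LIF/2i it was at 20 and 14, 61 and 60, 45 and 25, and 35 and 32 at the same days. Only the day 24 libraries in NSC medium stood apart, and they differed from each other. After Dox, Pax6 was lower in LIF/2i by -1.52 ± 0.50 (limma adjusted p = 0.0167). The call was lost without NSC medium day 24 replicate 1 (adjusted p = 0.0793), NSC medium day 20 replicate 2 (0.0525) or LIF/2i day 20 replicate 2 (0.0626).

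All 4 Nfi genes were lower in LIF/2i than in NSC medium after Dox, Nfia by -1.65 ± 0.16, Nfib by -1.78 ± 0.12, Nfix by -1.23 ± 0.08 and Nfic by -1.04 ± 0.10 (limma adjusted p of 3.52e-07, 5.24e-09, 6.84e-09 and 3.85e-07). With Pax6 this made 5 of 6 members, where 24.5% of all genes were called and 12.3% were called lower. The Nfic value was under 2-fold without LIF/2i day 20 replicate 1 (-0.99). With Dox no member was called between the media, against 15.5% of all genes. Summed values of 8 pluripotency markers were 57882 to 88746 in LIF/2i after Dox and 2080 to 8437 in NSC medium, and their part in the difference was not tested.

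Nfix values in NSC medium were low with Dox and high after it, on later days, so withdrawal cannot be told apart from time. From 3714 and 4104 at day 8 in N2B27, Nfix came to 1379 and 1176 at day 12 and 1379 and 1444 at day 16 in NSC medium. After Dox it came to 3944 and 4104 and then 4792 and 4507. The rise of Nfix, from the mean of days 12 and 16 to that of days 20 and 24, was 1.69 ± 0.08 (limma adjusted p = 8.24e-10). Nfic rose between the same means by 1.19 ± 0.10 (limma adjusted p = 1.93e-07). It was at 1038 and 1056 at day 12, 1014 and 1086 at day 16, 1799 and 1950 at day 20 and 3021 and 3138 at day 24. Nfix and Nfic were 2 of 6 members, where 20.5% of all genes were called and 11.2% rose. Fibroblast marker sums in NSC medium were 45324 to 95745 with Dox and 252842 to 268911 after it, and their part in these rises was not tested. In LIF/2i no member was called between the periods, where 11.6% of all genes were. Nfix there was at 1831 and 2064, 1321 and 1799, 2270 and 2503, and 1369 and 1461. The change after Dox differed between the media for Nfib, Nfix and Nfic, by 1.22 ± 0.16, 1.60 ± 0.12 and 1.15 ± 0.14 (limma interaction, adjusted p of 6.43e-05, 2.37e-07 and 3.27e-05), 3 of 6 members against 13.9% of all genes.

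**Figure D5:**
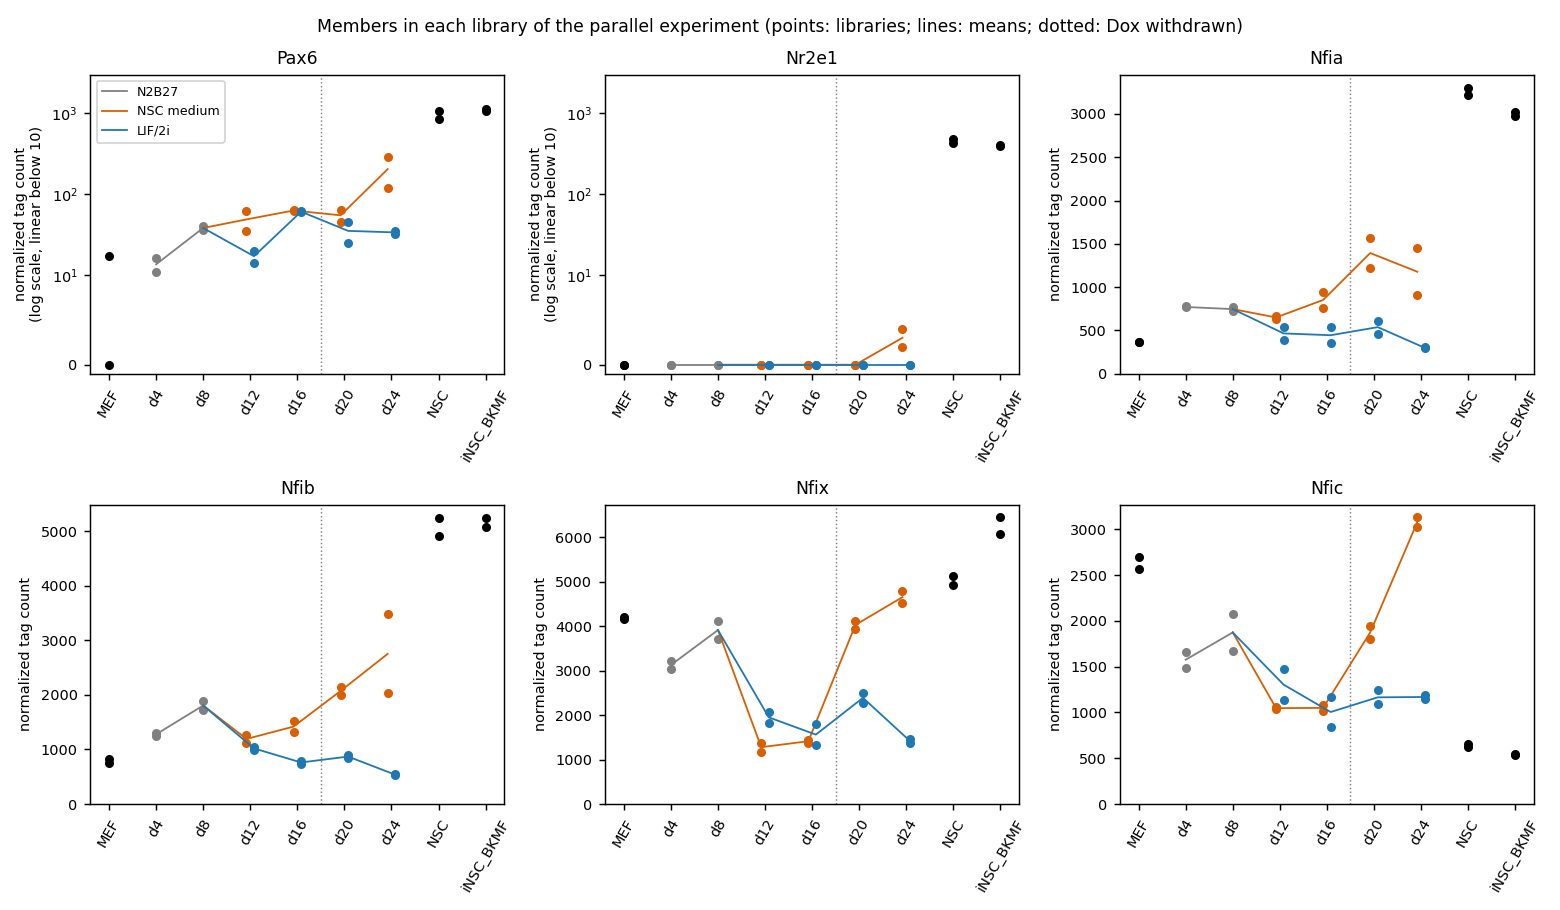
Normalized tag counts of the 6 genes in each library of the parallel experiment, in N2B27 (grey), NSC medium (orange) and LIF/2i (blue), with MEFs, NSCs and iNSC_BKMF in black. Nfix and Nfic climb after Dox withdrawal in NSC medium, to 4507 to 4792 and 3021 to 3138 at day 24, and stay lower in LIF/2i.

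At day 24 in NSC medium replicate 1 had more Pax6 (289 against 117), Nfia (1452 against 904) and Nfib (3475 against 2030) than replicate 2, and also higher sums of the neural stem cell markers (7710 against 4341) and neuron markers (7223 against 3215). Against NSCs these cells were lower in Pax6, Nr2e1 and Nfia and higher in Nfic, 4 of 6 members against 32.8% of all genes. Nfia was lower by -1.51 ± 0.23 (limma adjusted p = 4.25e-05) and Nfic higher by 2.27 ± 0.14 (limma adjusted p = 2.47e-09). Pax6 was lower by -2.35 ± 0.70 (limma adjusted p = 0.00951), a call lost without NSC medium replicate 2 (-1.70, adjusted p = 0.107) or NSC replicate 2 (adjusted p = 0.0535). Nfix differed by -0.11 ± 0.12, where BKM_FNV cells of day 30 had differed by -1.63, but those cells stood in the other table and differed in cocktail and day as well. At day 4 in N2B27 Nfia was higher than in MEFs by 1.08 ± 0.23 (limma adjusted p = 0.00143), the only member called, against 18.4% of all genes. No member was called between days 8 and 4, against 4.71% of all genes. These MEFs and the KM_FNV cells differ in genotype.

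Likeness of pattern was measured by the Pearson correlation of log2 group means over the 28 groups of the NSC-medium table, among 15880 genes. The genes most like Nr2e1 were Gpr37l1, a glial receptor (0.99), Hepacam, a glial adhesion protein (0.99), 3110082J24Rik, Bfsp2 and Gm45169. Group means of Nr2e1 were 2.5 or less outside NSCs and the induced lines, so a gene confined to these cells correlates highly with it. Hepacam averaged 6658.5 in NSCs, 1100 in iNSC_KF and 1.5 in BKM_FNV cells of day 30. Those most like Pax6 included Zfp687 (0.89), Ptbp2, Smad5 and Sall1. Those of Nfia were Colgalt2 (0.95), Arhgap32, Atxn7l3b, Clk2 and Tnfrsf21, and those of Nfib were Sesn1 (0.94), Ppp1r9a, Ank2, Zfp740 and Tnfrsf21. Nfix had no close match, with Mypop at 0.78 followed by Zxdc, 6030443J06Rik, Mfge8 and Ppp1r12b. Nfic was most like 1600014C10Rik (0.96), Crtap, Arpc1b, Hoxc6 and Mirg, of which Crtap averaged 2370.5 in MEFs and 333.5 in NSCs.

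Ordered by mean level, Pax6 was highest in iNSC_BKMF, then NSCs, BKM_FNV day 30, iNSC_KF, BKM_FNV day 24 and BKM_Sox2 day 24, and none of these neighbours overlapped in their libraries, which are 2 a group, or 1 for BKM_Sox2 day 24. Below them BKM_FNV and BKM_Sox17 at day 18 overlapped. For Nr2e1 the order was NSCs, iNSC_BKMF, iNSC_KF and then all other groups, which did not separate. For Nfib the first and the next, iNSC_BKMF and NSCs, overlapped. For Nfic the highest were BKM_Sox2, K_FNV and BKM_Sox17, all at day 30, of which the last pair overlapped.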

How the data were processed

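RNA of 74 samples in 38 groups was sequenced. Per the submitters' processing notes, the tools include Bowtie2 2.0 and RSEM, with genome build mm10. The values are handled as scores: the authors deposited them as normalized tag counts, whole numbers scaled to nearly the same distribution in every column of a table. The normalization method is not given in the sources used here, and depth is unknown. Tables were normalized separately and tested separately, and 4 columns that match no sample were not used.

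Genes with a value of 10 or more in at least 2 libraries were tested (20760 and 20468 genes) with limma 3.58.1 in R 4.3.3 on log2(value + 2), with a mean per group, a trended prior and Benjamini-Hochberg adjustment, two-sided, in 27 comparisons. Comparisons of groups over several days average the differences within days, and those of cells after and with Dox compare means over the days. The fit was tested on simulated data. The members and lists were chosen with earlier results of these data known. Named genes are the members, up to 4 called and 2 not called genes of each list, and the 5 genes most like each member. Some items that this rule names are not reported here. Alternatives were the pseudocount, the filter, rescaling, the samples fitted, the replicate block, leaving out each library, and keeping the doubted library. NSC columns are matched to their group only.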

Additional observations from a re-analysis of the deposited data

Results flagged for a closer look

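The change from the days with Dox to the later days without it differed between NSC medium and LIF/2i for 3 genes, by limma's interaction term. Dox withdrawal and time cannot be told apart in it. The change in NSC medium minus that in LIF/2i was 1.22 for Nfib, 1.60 for Nfix and 1.15 for Nfic on the log2(value + 2) scale. Nfix and Nfic rose in NSC medium, by 1.69 and 1.19, and moved by 0.08 and 0.04 in LIF/2i without a call. Nfib differed by 0.85 in NSC medium and by -0.36 in LIF/2i, neither of them 2-fold. The fibroblast marker sum was higher after Dox in NSC medium (252842 to 268911 against 45324 to 95745), and in LIF/2i it was 169948 to 268963 after and 95704 to 191767 before; its part in the differences was not tested.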

How the results depend on the processing

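Depth is unknown, groups have 1 or 2 libraries, and differences near 0 depend on the pseudocount. No difference of a called member reversed under the alternatives run. With a pseudocount of 10, 2 members were called in place of 1 for iNSC_KF against NSCs, for the lines against each other and for BKM_FNV against BKM_Sox2 after Dox. The last count was also 2 after rescaling by median ratios and 3 with the doubted library kept. With the compared groups alone, 2 were called for iNSC_KF against NSCs, for the lines and for BKM_FNV against BKM_Sox2 after Dox, 0 for BKM_Sox17 at day 18 against day 4, and 1 in place of 0 for BKM_FNV against BKM_Sox17 with Dox. Leaving out a library gave 1 to 2 members for BKM_FNV day 30 against day 24, K_FNV day 30 against MEFs and N2B27 day 4 against MEFs. It gave 0 to 1 for day 18 against day 4 in BKM_FNV, BKM_Sox17 and BKM_Sox2 and for BKM_FNV against BKM_Sox2 with Dox. The cause was not tested. A replicate block changed no count of members in 27 of 27 comparisons (5 for NSCs against MEFs, as without it). Same-numbered libraries did not deviate together (correlations from -0.0756 to 0.0918 and from -0.0498 to 0.0876), so no pairing by number was seen. A pairing with a weak effect would not show in this check. Counts over all genes fell by over 1.5 times in 14 comparisons with the doubted library kept (421 to 93 for iNSC_BKMF against NSCs, 5877 to 3600 for BKM_FNV day 30 against NSCs), and went from 3144 to 6694 for BKM_FNV against BKM_Sox2 after Dox. With the compared groups alone 4 fell (421 to 69, 1847 to 776 for iNSC_KF against NSCs, 2208 to 1209 for the lines and 964 to 342 for N2B27 day 8 against day 4). With a pseudocount of 10, BKM_FNV against BKM_Sox17 with Dox went from 772 to 497. Leaving out a library took 964 to 540 or 628 and 421 to 634.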
